A study of Mus musculus with 6 samples.

Results

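Hox genes and limb position genes were followed across melanomas grown at 2 body sites, the hind footpad and the flank skin. The genes were taken by symbol from the deposited table: every Hoxa, Hoxb, Hoxc and Hoxd gene with a number, together with Pitx1, Tbx2, Tbx3, Tbx4, Tbx5 and Tbx15. This gave 45 of the 45777 listed genes, of which 39 were Hox genes (11 in cluster A, 10 in cluster B, 9 in cluster C and 9 in cluster D). The tumors were grafts of B16F10, an established melanoma cell line of C57BL/6J origin, and total RNA of 3 footpad tumors and 3 flank tumors was sequenced to ask how weight load on the sole affects melanoma. All hosts carry the labels Foxn1-/-, a genotype without a thymus, and 8 weeks of age. The series title calls the grafts syngeneic, the methods describe younger C57BL/6J hosts for such grafts, and the host of the sequenced tumors is not named there, so the genotype and age rest on the labels alone. Those methods inject the flank and the footpad of the same mouse, and no source used here ties a footpad tumor to a flank tumor. According to the labels tumors were removed for RNA, whereas the methods speak of isolated tumor cells and name no way of separating them. Markers of host cells were read in every tumor, so each value can be a sum over tumor and host cells. In such bulk RNA, fewer cells of a type and less RNA per cell cannot be told apart.

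Hox genes encode homeodomain transcription factors that stand in 4 clusters, numbered as paralog groups 1 to 13 in the order of their position. Genes of low number act toward the head, and genes of high number toward the tail and, in the limb, toward the digits. Adult fibroblasts keep a Hox pattern of the place they came from. Pitx1 and Tbx4 mark the hindlimb, Tbx5 marks the forelimb, Tbx2 and Tbx3 encode repressors that pattern the limb margins, and Tbx15 acts in the limb skeleton and in skin pigment patterning. Tbx2 is also known for its expression in melanocytes and melanoma.

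Neither site had a position gene past the threshold in edgeR's quasi-likelihood test, which was an adjusted p under 0.05 with a fold of 2 or more. Of the 45 genes, 23 passed the filter on low counts and were tested, 19 of them Hox genes, and the other 22 had at most 26 reads in any tumor. Of those tested, 0 were called higher in footpad tumors and 0 were called lower, where 2.89% and 0.872% of all 17210 genes tested were called. At an unadjusted p under 0.05, 2 were higher, Hoxd8 and Tbx3, and 0 were lower. DESeq2 called both of these and no gene lower, against a background of 6.73% of genes called higher. The 95% interval of the log2 fold change lay within 1 unit of 0 for 8 of the 23 genes, so that a 2-fold difference was outside it. For Tbx3 the interval, 1.13 to 4.78, lay above a 2-fold difference. For each of the remaining genes a 2-fold difference in at least 1 direction was inside the interval. The p-values measure the spread between these 3 and 3 tumors, and the labels do not say whether they came from separate animals.

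Depth was between 46529649 and 66364366 reads counted on genes per tumor. At these depths 3 reads, the limit of detection used here, equalled 0.0438 to 0.0673 CPM (the count scaled by library size and edgeR's TMM factors), and these limits cover counting error only. Host tissue differed between the sites. Fibroblast markers summed to between 2830 and 3850 CPM in footpad tumors and between 135 and 467 CPM in flank tumors, with 8 of 12 markers called higher, and Dpt and Pi16 were at 0 in flank replicates 1 and 3. Keratinocyte markers summed to 704 CPM and skeletal muscle markers to 1100 CPM in footpad replicate 2, which stood apart from the other tumors, whose highest sums were 46.8 and 200 CPM. Melanocyte and melanoma markers summed to between 13500 and 23100 CPM in footpad tumors and between 17400 and 28900 CPM in flank tumors, with 0 of 8 called. Of 4 genes of palm and sole skin, Krt9 and Krt77 had 0 reads in all 3 footpad tumors, Aqp5 had 10, 43 and 30 reads against 10, 3 and 2 in flank tumors, and En1 had 9, 20 and 21 reads against 0, 8 and 0. Their sum was 4.36-fold higher in the mean of the footpad tumors, and edgeR called 0 of the 2 tested, while 1 was higher at an unadjusted p under 0.05 and DESeq2 called 0.

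Detection was read by paralog group, with a gene taken as detected in a tumor at more than 3 reads and at a site when this held in all 3 of its tumors. Of the 39 Hox genes, 20 were detected at the footpad and 19 at the flank, and 15 had more than 3 reads in all 6 tumors. In paralog groups 1 to 4, 6 of 12 genes were detected at the footpad and 8 at the flank. For groups 5 to 8 the numbers were 7 and 6 of 11, and for groups 9 to 13 they were 7 and 5 of 16. The detected set was thus spread over the anterior, middle and posterior groups at both sites.

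The 4 clusters differed in how many genes were detected. Cluster A was detected in 10 of its 11 genes at the footpad and in 9 at the flank, cluster B in 4 and 6 of 10, and cluster D in 5 and 4 of 9. Cluster C had 1 of 9 genes detected at the footpad and 0 at the flank, and no gene of it exceeded 20 reads in any tumor. Hoxc10, a gene of hindlimb and lumbar level, had 4 reads in flank replicate 2 and 0 reads in each of the other tumors. Hoxc12, Hoxd1 and Hoxd12 had 0 reads in all 6 tumors.

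**Figure D1:**
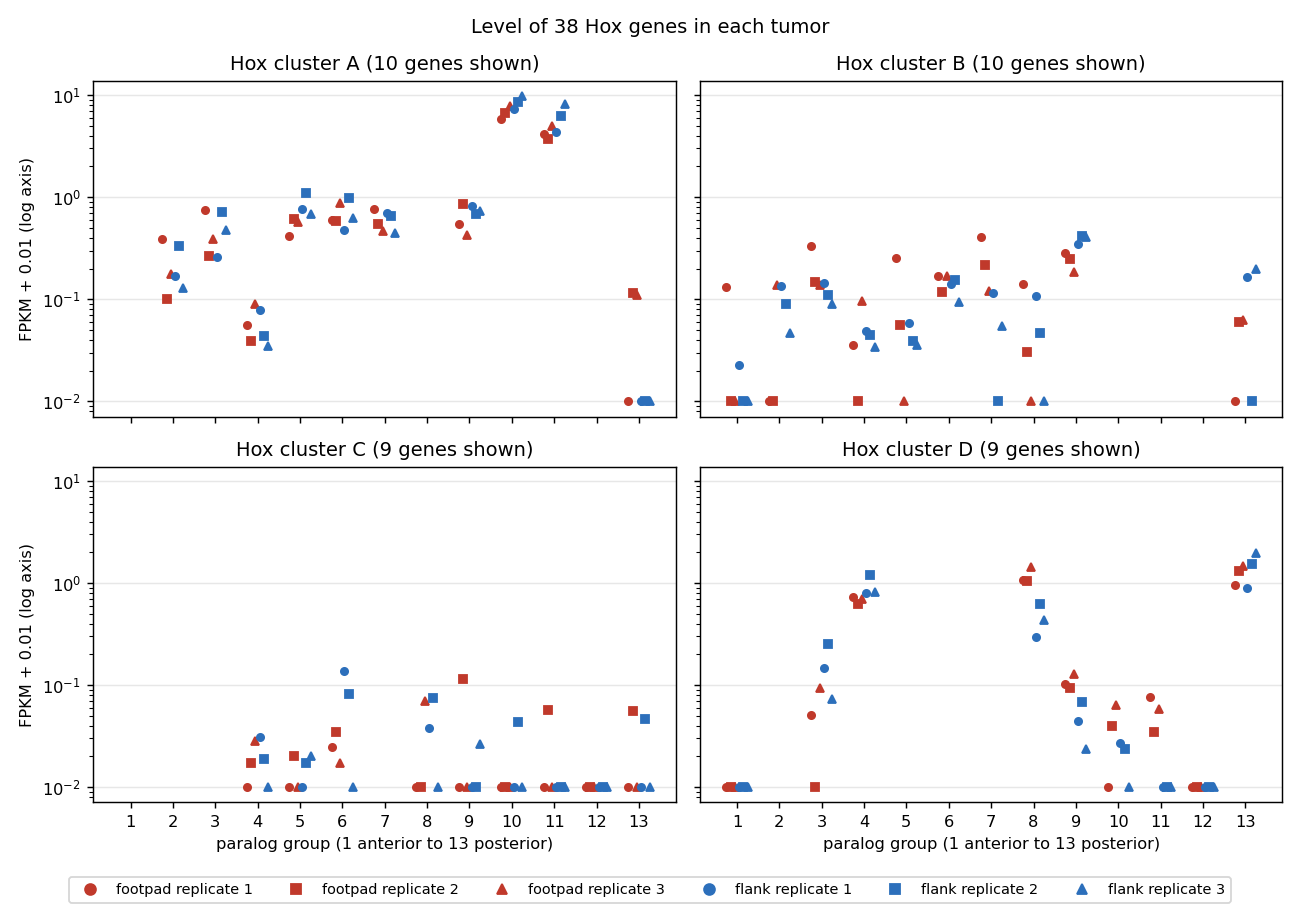
Level of 38 Hox genes in each tumor as FPKM with 0.01 added, on a log axis, with 1 panel per cluster and paralog groups 1 to 13 from left to right (red, footpad; blue, flank; the symbol gives the replicate). Hoxa10 and Hoxa11 stand highest at both sites, cluster C lies near the bottom, and points at 0.01 are tumors with 0 reads.

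Levels were compared between genes as FPKM, which divides by transcript length. Hoxa10, a gene of the proximal limb and lower trunk, was the highest Hox gene with a mean of 7.62 FPKM over the 6 tumors, followed by its neighbour Hoxa11, a gene of the forearm and shank, at 5.23 FPKM. Hoxd13, a gene of the digits, was at 1.34 FPKM, Hoxd8 at 0.811 and Hoxd4 at 0.801 FPKM. The ranges of Hoxa10 and Hoxa11 over the tumors overlapped, from 5.76 to 9.72 FPKM and from 3.70 to 8.08 FPKM, and Hoxd13 ranged from 0.885 to 1.94 FPKM. Among the genes of the limb, Tbx2 was highest at 23.4 FPKM, Tbx4 had 5.38 FPKM and Tbx15 had 2.19 FPKM.

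The profile of the Hox genes within a tumor leaned to the posterior groups at both sites. Paralog groups 9 to 13 held 63.4%, 72.1% and 69.5% of the summed Hox FPKM in the 3 footpad tumors in order of replicate, and 72.0%, 70.8% and 81.4% in the flank tumors. Means were 68.3% ± 4.49 in footpad tumors and 74.7% ± 5.77 in flank tumors (SD, n = 3 each), a difference of -6.38 percentage points with overlapping sites. Hoxa10, Hoxa11 and Hoxd13 alone made up 62.3% ± 3.64 and 69.0% ± 6.21 of the sum. In groups 11 to 13 alone the shares were 28.9% ± 1.40 in footpad and 32.9% ± 5.91 in flank tumors, so the mean share of the most distal groups was not larger at the foot.

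The shares of clusters A and D were apart between the sites, and those of clusters B and C overlapped. Cluster A held between 75.0% and 77.9% of the Hox FPKM in footpad tumors and between 81.1% and 84.0% in flank tumors. Cluster D held between 15.8% and 17.9% in footpad tumors and between 11.2% and 14.7% in flank tumors. Cluster B held between 3.83% and 9.04% in footpad tumors and between 3.35% and 6.18% in flank tumors. The sum of cluster D includes Hoxd8, at 1.07, 1.03 and 1.44 FPKM in footpad tumors and 0.289, 0.61 and 0.423 FPKM in flank tumors. Its means were 1.18 and 0.441 FPKM. Shares without Hoxd8 were not computed. The gaps between the sites in clusters A and D may rest on this 1 gene. A shift of a whole cluster cannot be read from these shares. The cluster shares are given as a description. The Hox sum itself was 18.6, 18.4 and 21.8 FPKM at the footpad and 19.2, 24.7 and 25.9 FPKM at the flank.

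Promoters are shown for 4 posterior or middle genes that mark the contrast in the data: Hoxd13, present in all tumors, Hoxd11 and Hoxa13, read at the footpad alone, and Hoxd8, with the smallest p among the Hox genes. Each runs from 250 bases before to 50 bases after the start of transcription in RefSeq on GRCm38.p6, 5′ to 3′ on the strand of the gene. Capitals mark matches to a TATA box (TATAAA), a TEAD site (GGAATG) or a Hox and PBX composite site (TGATNNAT), searched on both strands.
Hoxd13, chr2:74667975-74668274, plus strand: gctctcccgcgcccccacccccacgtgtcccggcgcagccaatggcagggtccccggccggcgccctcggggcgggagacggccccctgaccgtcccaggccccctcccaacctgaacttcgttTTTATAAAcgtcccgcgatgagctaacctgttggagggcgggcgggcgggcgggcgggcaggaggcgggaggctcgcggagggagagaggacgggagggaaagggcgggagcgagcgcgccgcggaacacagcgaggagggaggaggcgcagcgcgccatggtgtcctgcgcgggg
Hoxd11, chr2:74682073-74682372, plus strand: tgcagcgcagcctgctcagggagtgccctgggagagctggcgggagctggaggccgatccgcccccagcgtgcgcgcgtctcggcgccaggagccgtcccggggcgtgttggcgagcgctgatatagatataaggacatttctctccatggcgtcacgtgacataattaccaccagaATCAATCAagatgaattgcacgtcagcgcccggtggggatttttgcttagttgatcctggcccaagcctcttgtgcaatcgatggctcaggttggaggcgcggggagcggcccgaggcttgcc
Hoxa13, chr6:52260831-52261130, minus strand: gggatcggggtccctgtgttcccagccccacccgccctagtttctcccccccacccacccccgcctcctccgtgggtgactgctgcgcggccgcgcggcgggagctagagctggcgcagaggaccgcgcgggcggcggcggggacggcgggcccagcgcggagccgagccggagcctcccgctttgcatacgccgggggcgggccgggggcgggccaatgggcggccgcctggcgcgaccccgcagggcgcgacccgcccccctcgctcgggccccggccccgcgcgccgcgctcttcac
Hoxd8, chr2:74704365-74704664, plus strand: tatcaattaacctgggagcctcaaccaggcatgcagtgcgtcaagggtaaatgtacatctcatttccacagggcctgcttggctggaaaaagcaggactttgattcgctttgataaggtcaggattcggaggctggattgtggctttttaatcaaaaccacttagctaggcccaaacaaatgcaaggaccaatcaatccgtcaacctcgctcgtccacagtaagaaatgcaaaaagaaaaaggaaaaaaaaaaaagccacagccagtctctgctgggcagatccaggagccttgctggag

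The Hoxd13 window held 37 CpG dinucleotides and 2 overlapping TATA box matches, 1 on each strand, where 13.6% of 32851 promoters of this length held this motif. That of Hoxd11 held 25 CpG and 1 match to the composite site on the minus strand, a motif in 8.85% of promoters. The Hoxd11 window lies inside the listed span of the gene, which begins at chr2:74679558, and so belongs to an internal start. For Hoxa13 there were 45 CpG and none of the 3 motifs, and for Hoxd8 only 6 CpG and none of the motifs. The TEAD site, present in 14.7% of promoters, was in none of the 4 windows. RefSeq windows were at hand for 23 of the 45 genes, 25 windows in all with a median of 14 CpG, where the median of all promoters was 7. A match is a run of letters and not a bound site.

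Among the posterior genes, Hoxa10 was read at 690, 1065 and 913 reads in footpad replicates 1 to 3 and at 1129, 1120 and 1490 reads in flank replicates 1 to 3. In CPM these were 15.5, 15.5 and 18.6 against 19.5, 19.2 and 23.8, with each flank tumor above each footpad tumor. The log2 fold change of footpad over flank was -0.33 (SE 0.16, 95% interval -0.71 to 0.05, adjusted p = 0.250 in edgeR's quasi-likelihood test). Hoxa11 and Hoxd13 were singled out after their values were seen, for their level. Hoxa11 had 11.5, 9.03 and 12.4 CPM in footpad tumors and 12, 14.9 and 20.8 CPM in flank tumors, and Hoxd13 had 2.96, 3.57 and 4.16 CPM against 2.79, 4 and 5.61 CPM. Both genes overlapped between the sites. The log2 fold change was -0.54 for Hoxa11 (adjusted p = 0.218) and -0.21 for Hoxd13 (95% interval -0.97 to 0.54, adjusted p = 0.713), and the sign for Hoxd13 turned, to 0.06, without flank replicate 3.

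Hoxd11 and Hoxa13, genes of the forearm and shank and of the digits, were near the limit of detection. Hoxd11 had 12, 8 and 11 reads in footpad tumors and 0 reads in each flank tumor, and it was the one position gene detected in all tumors of 1 site and none of the other. Of all listed genes, 0.433% were detected in all footpad and no flank tumors and 0.212% the other way round, and none of the 45 genes was of the latter kind. Set against 3 reads per flank library, the mean footpad CPM of Hoxd11 was 4.04-fold higher, a ratio that leaves out the error of that mean. It did not pass the filter on low counts and was not tested in edgeR, and DESeq2 without a filter, added after the data were seen, called it (adjusted p = 0.0282). Hoxa13, singled out after its values were seen, had 0, 11 and 8 reads in footpad tumors and 0 reads in each flank tumor. Its footpad mean, 0.108 CPM with an SD of 0.0935, was 2.14-fold higher than the same floor. Footpad replicate 1 overlapped the flank tumors in this gene. Hoxd11 shares its strand and span with Gm28309, a gene model that also covers Hoxd10, and Hoxd10 had 0, 7 and 9 reads against 4, 3 and 0.

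Hoxd8, a middle gene of cluster D known from the trunk and the proximal limb, had 120, 155 and 159 reads in footpad tumors and 42, 76 and 62 reads in flank tumors. The levels were 2.69, 2.26 and 3.25 CPM against 0.724, 1.30 and 0.991 CPM, and the sites did not overlap. The log2 fold change was 1.44 (SE 0.35, 95% interval 0.63 to 2.25), with an adjusted p of 0.0581 in edgeR's quasi-likelihood test, just outside the threshold. DESeq2, with an adjusted p of 0.00400, and edgeR with a filter of 10 counts in every tumor, with 0.0407, called the gene. No fit without a single tumor did, with log2 fold changes between 1.25 and 1.66 and adjusted p-values from edgeR between 0.0626 and 0.195, and edgeR with no filter gave 0.0813. The fibroblast marker sums given above were also higher in every footpad tumor than in any flank tumor, and their part in the Hoxd8 values was not tested. Hoxd3os1, a noncoding gene on the opposite strand that overlaps Hoxd8, had between 15 and 16 reads in footpad tumors and between 9 and 16 in flank tumors.

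The other Hox genes that were higher in all footpad tumors were scarce. Hoxd9, next to Hoxd8, had 11, 13 and 14 reads in footpad tumors and 6, 8 and 2 reads in flank tumors (log2 fold change 1.39, adjusted p = 0.244 in edgeR). Hoxb7, a gene of the trunk, had 28, 20 and 13 reads against 15, 0 and 5 reads (log2 fold change 1.78, 95% interval -0.64 to 4.20, adjusted p = 0.325 in edgeR). Neither passed the test, and the intervals are wide. Both genes passed the filter on low counts only through the footpad tumors, where they were higher.

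In the opposite direction, the levels of Hoxa5, a gene of the neck and chest, were 0.943, 1.20 and 1.16 CPM in footpad tumors and 1.72, 2.12 and 1.44 CPM in flank tumors. Those of Hoxb9, a gene of the chest, were 0.920, 0.685 and 0.531 CPM against 1.12, 1.13 and 1.21 CPM. For Hoxd4, a gene of the neck, they were 2.29, 1.68 and 1.92 CPM against 2.47, 3.15 and 2.35 CPM. All 3 were above the footpad tumors in every flank tumor, with log2 fold changes of -0.68, -0.70 and -0.44 and adjusted p-values of 0.241, 0.276 and 0.387 in edgeR, none past the threshold. Hoxa5 and Hoxd4 each share part of their span and strand with a neighbour, Hoxa3 and Hoxd3, and how reads in a shared part were counted is not given in the sources used here. In all, 16 of the 45 genes overlapped another gene on the same strand and 17 on the opposite strand.

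Sites without overlap were about as frequent in these genes as in all genes. Of the 23 tested, 5 were higher in all footpad tumors (Hoxb7, Hoxd8, Hoxd9, Tbx3 and Tbx15), or 21.7%, where 17.5% of all genes tested were. Another 5, or 21.7%, were higher in all flank tumors (Hoxa5, Hoxa10, Hoxb9, Hoxd4 and Tbx4), where 14.9% of all genes tested were. The log2 fold change was above 0 for 10 and below 0 for 13 genes, and its median was -0.02, against 0.00 over all genes tested. The other 13 genes tested, 12 Hox genes and Tbx2, overlapped between the sites.

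**Figure D2:**
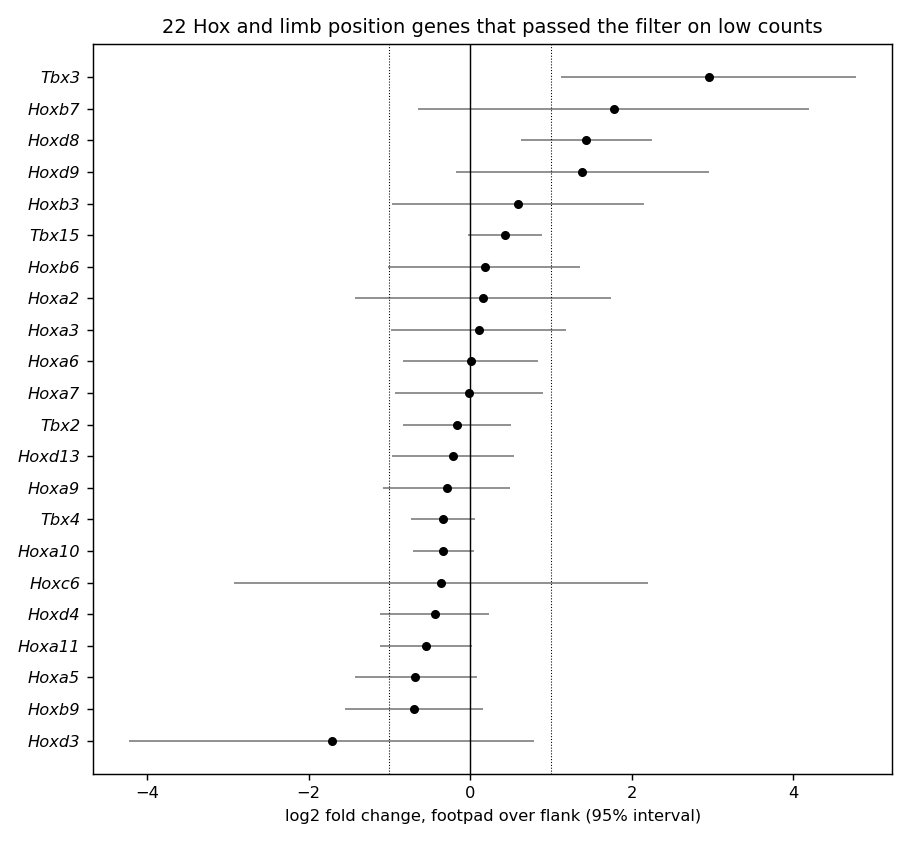
Log2 fold change of footpad over flank for 22 of the 23 position genes tested (points) with 95% intervals (lines); dotted lines mark a fold of 2 in each direction. Tbx3 and Hoxd8 are the 2 genes whose interval lies above 0, and the other 20 intervals span 0.

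The hindlimb genes were not called higher in the footpad tumors. Pitx1, the upstream hindlimb gene, had 0, 7 and 0 reads in footpad tumors and 0, 2 and 0 reads in flank tumors, so it was above the limit of 3 reads in footpad replicate 2 alone. Tbx4, a hindlimb gene that Pitx1 activates, was present in every tumor, with 14, 16.1 and 17.4 CPM in footpad tumors and 23, 19.1 and 17.8 CPM in flank tumors. Each flank tumor was above each footpad tumor (log2 fold change -0.33, SE 0.17, 95% interval -0.73 to 0.06, adjusted p = 0.260 in edgeR), though flank replicate 3 was close to footpad replicate 3. Tbx5, the forelimb gene, had 4 reads in flank replicate 1 and 0 reads in the other tumors.

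Tbx3 gave the largest fold change of the tested genes. Its levels were 3.73, 0.627 and 1.47 CPM in footpad tumors, from 166, 43 and 72 reads, and 0.138, 0.445 and 0.160 CPM in flank tumors, from 8, 26 and 10 reads. Each footpad tumor was above each flank tumor, but footpad replicate 2 and flank replicate 2 lay close together. The log2 fold change was 2.96 (SE 0.78, 95% interval 1.13 to 4.78), with an adjusted p of 0.0705 in edgeR's quasi-likelihood test. The gene was called by DESeq2 (adjusted p = 0.00301) and by edgeR without footpad replicate 2 (log2 fold change 3.38, adjusted p = 0.0428). Without footpad replicate 1 the log2 fold change was 2.07 (adjusted p = 0.214 in edgeR), and without each of the other 5 tumors it was between 2.67 and 3.67. It was not called in those fits apart from the one without footpad replicate 2, nor in limma, with adjusted p-values of 0.191 and 0.101 at the 2 pseudocounts. Among flank tumors, replicate 2 was the highest both in Tbx3 and in the fibroblast marker sum, at 467 CPM, while among footpad tumors the highest Tbx3 was in replicate 1 and the highest marker sum in replicate 3. Tbx3os1, a gene on the opposite strand, overlaps Tbx3, and whether strand was used in counting is not given in the sources used here.

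Its paralog Tbx2 was the most abundant of the 45 genes, at 98.3, 82.4 and 88.6 CPM in footpad tumors and 153, 71.9 and 76.2 CPM in flank tumors. Flank replicate 1 was highest, and the other 2 flank tumors lay below all footpad tumors (log2 fold change -0.16, 95% interval -0.83 to 0.51, adjusted p = 0.767 in edgeR). Without flank replicate 1 the log2 fold change was 0.27. Flank replicate 1 also had the largest sum of melanocyte and melanoma markers, 28900 CPM, with 17400 and 20600 CPM in flank replicates 2 and 3. In footpad tumors the order of the sums, 13500, 23100 and 17300 CPM, was the reverse of that of Tbx2. The part of melanocyte and melanoma cells in the Tbx2 values was not tested. Tbx15 had 9.65, 11.5 and 9.17 CPM in footpad tumors and 8.12, 6.84 and 7.48 CPM in flank tumors. It was higher in each footpad tumor, by a log2 fold change of 0.43 (SE 0.19, 95% interval -0.02 to 0.89, adjusted p = 0.213 in edgeR), which did not pass the test.

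**Figure D3:**
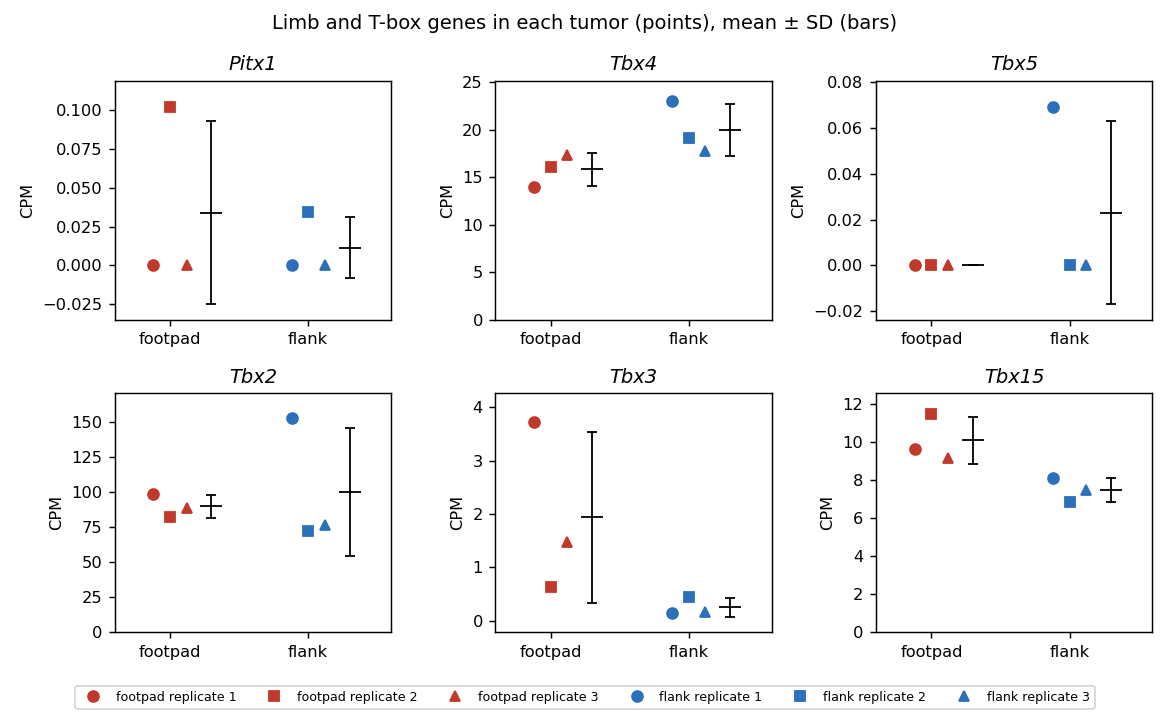
CPM of Pitx1 and 5 T-box genes in each tumor (red, footpad; blue, flank), with the mean and SD of 3 tumors beside the points. Tbx3 is higher in the 3 footpad tumors, Tbx4 is higher in the 3 flank tumors, and Pitx1 and Tbx5 are at 0 in most tumors.

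Position genes can serve as marks of host mesenchyme, and the spread of the abundant ones was set beside the fibroblast markers. From the lowest to the highest tumor, CPM spanned 1.54-fold for Hoxa10, 2.30-fold for Hoxa11, 2.01-fold for Hoxd13, 1.65-fold for Tbx4, 1.68-fold for Tbx15 and 2.12-fold for Tbx2. The fibroblast marker sum spanned 28.5-fold over the same tumors and was 12.3-fold higher in the mean of the footpad tumors. The sum of melanocyte and melanoma markers spanned 2.13-fold and that of endothelial markers 1.98-fold. Single fibroblast markers differed: Fbln1 spanned 1.71-fold, Pdgfrb 3.75-fold, and the others with reads in all tumors 7.20-fold or more. For Hoxd8 and Tbx3 the spans were 4.48-fold and 27.0-fold. The most abundant position genes thus spanned less than the fibroblast marker sum. Their spans were about those of the melanocyte and melanoma sum, of the endothelial sum and of Fbln1. Single markers of these 2 sums varied more widely. They spanned 1.27-fold (Sox10) to 6.08-fold (Tyr) for melanocyte and melanoma markers and 1.91-fold (Vwf) to 14.7-fold (Tek) for endothelial markers. The cells that carried their RNA cannot be told apart in these libraries.

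Genes that work with the Hox proteins or pattern the same tissues were read from 4 further lists. Among 47 limb and skin patterning genes, 24 were tested, 5 were called higher in footpad tumors and 0 lower. Of all genes tested, 2.89% and 0.872% were. The median log2 fold change was 1.63, against 0.00 over all genes tested. At an unadjusted p under 0.05, 11 were higher and 1 was lower. DESeq2 called 10 higher and 0 lower, against a background of 6.73% of genes called higher. The 5 called were mesenchymal transcription factors. Prrx1, a gene of limb bud mesenchyme, had 34.9, 18.3 and 27.9 CPM in footpad tumors and 2.1, 4.96 and 1.5 CPM in flank tumors (log2 fold change 3.24, SE 0.48, adjusted p = 0.0201 in edgeR). Meox2, a gene of limb muscle and vessels, had 2.04, 3.50 and 2.59 CPM against 0.552, 0.411 and 0.399 CPM (log2 fold change 2.57, SE 0.37, adjusted p = 0.0174 in edgeR).

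Tbx18, a T-box gene of mural and mesenchymal cells, had 2.24, 2.17 and 2.92 CPM in footpad tumors and 0.138, 0.582 and 0.368 CPM in flank tumors (log2 fold change 2.75, adjusted p = 0.0360 in edgeR). Twist2, a gene of dermal mesenchyme, had 19, 26 and 33 reads against 2, 5 and 5 reads (log2 fold change 2.84, adjusted p = 0.0429 in edgeR). Osr1, a gene of connective tissue in the limb, had 71, 61 and 50 reads against 0, 6 and 0 reads (adjusted p = 0.0459 in edgeR). With so few flank reads, Twist2 and Osr1 passed the filter on low counts only through the footpad tumors, where they were high. Fibroblast markers were higher in the same tumors, as were endothelial markers, with 2 of 8 called higher and sums between 296 and 329 CPM in footpad tumors and between 166 and 202 CPM in flank tumors. Of the 7 tendon, cartilage and bone markers tested, 3 were called higher (Comp, Fmod and Runx2) and 1 lower (Col2a1), and the list summed to between 56.5 and 216 CPM in footpad tumors and between 43.8 and 64.2 CPM in flank tumors. The part of these cells in the values of the 5 genes was not tested. The 5 calls did not hold in every fit without a single tumor. None of the 5 was called without footpad replicate 1, without footpad replicate 3 or without flank replicate 3. In those fits 31, 0 and 46 of all genes were called. Of the 5, 2 were called without flank replicate 1. Log2 fold changes without single tumors were 2.34 to 2.74 for Meox2, 2.93 to 3.90 for Prrx1 and 2.36 to 3.25 for Tbx18. They were 2.54 to 3.04 for Twist2 and 4.44 to 9.04 for Osr1.

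Other genes of that list did not differ past the threshold in edgeR. DESeq2 also called Meox1, Twist1, Wnt5a, Prrx2 and Msx1 higher, each without overlap between the sites. In edgeR their log2 fold changes ran from 2.22 (Twist1) to 4.30 (Prrx2). Their adjusted p-values there lay between 0.0578 (Meox1) and 0.0719 (Msx1). Dlx6 was lower in every footpad tumor (log2 fold change -1.07, adjusted p = 0.126 in edgeR), and DESeq2 did not call it. Pax3, a regulator of muscle progenitors and melanocytes, was the highest of those named here at 97.9, 94.8 and 92.4 CPM in footpad tumors and 124, 101 and 116 CPM in flank tumors. Alx1, a gene of facial and limb mesenchyme, had 33.7, 44.0 and 43.4 CPM against 61.4, 43.0 and 51.7 CPM. Pax3 and Alx1 were singled out after their values were seen (log2 fold changes -0.26 and -0.37, adjusted p = 0.256 and 0.244 in edgeR). From the lowest to the highest tumor, CPM spanned 1.34-fold for Pax3 and 1.82-fold for Alx1, beside 1.54-fold for Hoxa10 and 1.65-fold for Tbx4.

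**Figure D4:**
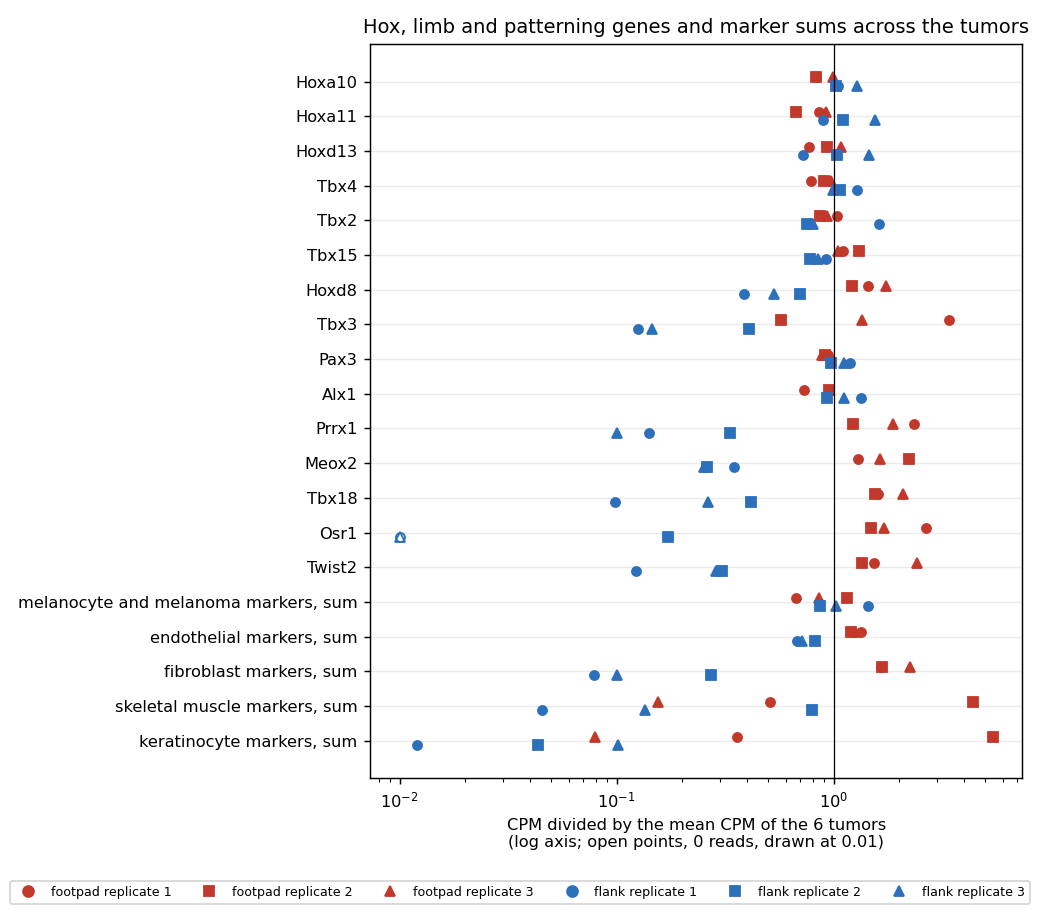
CPM of position genes, of patterning genes and of summed cell type markers in each tumor, divided by the mean of the 6 tumors, on a log axis (red, footpad; blue, flank; open points, 0 reads, drawn at 0.01). Hoxa10, Hoxa11, Hoxd13, Tbx4, Tbx2, Tbx15, Pax3 and Alx1 stay near 1 in all tumors, while Prrx1, Meox2, Tbx18, Osr1, Twist2 and the fibroblast sum are split by site.

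The TALE cofactors, homeodomain proteins that bind DNA together with Hox proteins, were all expressed. All 9 were tested and 0 were called in either direction, 2 were higher and 0 lower at an unadjusted p under 0.05, and DESeq2 called 0. Meis3 had the smallest adjusted p, with 14.2, 10.9 and 11.2 CPM in footpad tumors and 6.64, 6.93 and 4.75 CPM in flank tumors (log2 fold change 0.99, SE 0.23, adjusted p = 0.0536 in edgeR). Pbx4 had 1.93, 2.19 and 2 CPM against 1.26, 1.21 and 1.02 CPM (log2 fold change 0.81, adjusted p = 0.145 in edgeR).

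Noncoding genes of the clusters were mostly near or at 0. Of 17 such genes 16 were in the table, 7 of them had 0 reads in all tumors, 4 were tested, and 0 were called in edgeR in either direction, at an unadjusted p under 0.05 or in DESeq2. Hoxa11os, antisense to Hoxa11, had 4.44, 3.60 and 4.65 CPM in footpad tumors and 5.55, 5.30 and 5.88 CPM in flank tumors (log2 fold change -0.40, adjusted p = 0.314 in edgeR). Hotairm1, a noncoding gene of cluster A, had 4.06, 4.46 and 3.65 CPM against 5.07, 2.60 and 2.75 CPM (log2 fold change 0.23, adjusted p = 0.701 in edgeR). The distal transcripts Hotair and Hottip had at most 4 reads in any tumor.

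Histone regulators, the Polycomb and Trithorax proteins that keep Hox genes off or on, were also tested in full. Of 22 genes 0 were called in either direction in edgeR, 4 were higher and 7 lower at an unadjusted p under 0.05, and DESeq2 called 1 higher, Kdm6b. The share of all genes under that unadjusted p was not computed, here or for the other lists. Without overlap, 2 of the 22 were higher in all footpad tumors and 9 in all flank tumors. Of all genes tested, 17.5% and 14.9% were. Rnf2, a Polycomb ubiquitin ligase, had 44.7, 52.3 and 51.9 CPM in footpad tumors and 83.7, 65.5 and 81.9 CPM in flank tumors (log2 fold change -0.63, SE 0.14, adjusted p = 0.0517 in edgeR). Kdm6b, a demethylase of the Polycomb mark, had 54.6, 26.3 and 27.5 CPM against 15.2, 18.1 and 15.8 CPM (log2 fold change 1.14, SE 0.29, adjusted p = 0.0650 in edgeR). Eed, a core Polycomb subunit, had a log2 fold change of -0.46 (adjusted p = 0.0739 in edgeR).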

How the data were processed

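Tumors were assigned to a site and replicate by the sample labels. Per the labels and the methods, the authors made stranded total RNA libraries, trimmed reads with Trimmomatic, aligned them with HISAT2 2.1.0 to mm10, and deposited read counts per gene, unnormalized, and FPKM values; the counting program and its strand setting are not given in the sources used here. The quasi-likelihood test of edgeR 4.0.16 (R 4.3.3; TMM, default filterByExpr) was fitted to the counts of 17210 genes, with Benjamini-Hochberg adjustment, and the position genes were read from that fit. The standard error was approximated as the size of the log2 fold change divided by the square root of F. FPKM values served to compare levels between genes. Overlapping genes were read from GENCODE M21 and promoters from RefSeq, both on GRCm38. Alternatives were DESeq2 1.42.0, limma 3.58.1 on log2(FPKM + 1) and log2(FPKM + 0.1), other filters, scaling and thresholds, and each tumor left out. The fits were tested on simulated data. The genes and lists were chosen with earlier results of these data known. Values per tumor are given for Pitx1 and the Tbx genes, for Hox genes called, for Hox genes with sites apart and more than 10 reads in each tumor of the higher site, and for Hox genes detected at 1 site alone. From the other lists, genes called are named, or those with the smallest adjusted p, up to 6 a list. Further patterning genes are named for their DESeq2 call, their unadjusted p or their level. The values of 1 gene, which is counted in the totals, are not reported here.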

Additional observations from a re-analysis of the deposited data

How the results depend on the processing

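The count of position genes called higher in footpad tumors was 0 in edgeR and 2 in DESeq2 (Hoxd8 and Tbx3), 3 in DESeq2 without a filter, added after the data were seen (with Hoxd11), 1 with a filter of 10 counts in every tumor (Hoxd8), 2 at an adjusted p under 0.1, and 0 to 1 when single tumors were left out (Tbx3 without footpad replicate 2); no setting called one lower. The count of genes called higher in the other lists, 5 in edgeR, was 11 in DESeq2, 13 in DESeq2 without a filter, 1 in limma on log2(FPKM + 1), 9 on log2(FPKM + 0.1) and 0 to 6 without single tumors, all added after the data were seen. Genes detected at 1 site alone were 1 to 2 for the footpad and 0 to 1 for the flank without single tumors, and the difference in the distal share ranged from -8.34 to -3.06. Signs turned for Hoxa7 with 10 counts in every tumor (0.01) and with upper-quartile scaling (0.01) and Hoxa3 with limma (-0.01 and -0.04). Without single tumors, log2 fold changes spanned -0.66 to 0.58 for Hoxa2, -0.43 to 0.37 for Hoxa3, -0.19 to 0.27 for Hoxa6, -0.33 to 0.18 for Hoxa7, -0.09 to 1.38 for Hoxb3, -0.95 to 0.13 for Hoxc6, -0.43 to 0.06 for Hoxd13 and -0.35 to 0.27 for Tbx2. The cause was not tested.

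No source used here says that tumors with the same number came from the same mouse, and the correlations of their deviations were 0.0544, -0.0965 and -0.115. With the replicate block, 0 position genes, 0 genes of the other lists and 0 of all genes were called. Prrx1, Meox2, Tbx18, Osr1 and Twist2 then had adjusted p-values between 0.0813 and 0.130 in edgeR, Hoxd8 had 0.143 and Tbx3 0.194, and Hoxc6 turned to 0.16.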
